A study of Mus musculus with 9 samples.

Results

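Irx1, Irx2, Pou3f4, Foxa1 and Foxa2 are 5 transcription factor genes of pancreatic alpha cells, the islet cells that make glucagon. They were found by symbol in a table of gene counts, where they are 5 of 33212 rows, and 4 of them were among the 14754 genes with enough counts to be tested. The fifth, Foxa1, had 9 counts in 1 library and 0 in the other libraries. The data are poly-A RNA-seq of αTC1 cells, a mouse line of glucagon-producing tumour cells grown in low-glucose medium with serum. In 4 libraries the cells had received 4 µM EPZ011989 for 7 days, and in 5 libraries DMSO, its solvent, for 7 days. The only difference the labels name between the groups is the compound. EPZ011989 blocks the methyltransferase EZH2, the enzyme of Polycomb repressive complex 2 that marks silent developmental genes on histone H3. The study asked how this compound changes αTC1 cells. The libraries are labelled as biological replicates of 1 cell line, which is 1 transformed clone and not an alpha cell of an islet. In such bulk samples, fewer cells of a type and less RNA per cell cannot be told apart.

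Irx1 and Irx2 encode Iroquois homeodomain proteins, which pattern many embryonic tissues and, in the mouse islet, are made in glucagon cells. Pou3f4, also called Brn4, encodes a POU homeodomain protein that binds the glucagon gene promoter and appears early in the alpha cell lineage of the mouse. Foxa1 and Foxa2 encode forkhead proteins known as pioneer factors, which bind closed chromatin and open it for other factors. Foxa2 acts from the early endoderm onwards and in adult islets.

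The 5 genes lie on 4 chromosomes of GRCm38 by the GENCODE M21 annotation. Irx1 (chr13:71957921-71963723, minus strand) and Irx2 (chr13:72628820-72634198, plus strand) belong to 1 Iroquois cluster, with starts 665 kb apart. Pou3f4 (chrX:110814280-110817207, plus strand) has 1 annotated transcript. Foxa1 (chr12:57540628-57546916) and Foxa2 (chr2:148042877-148046969) are on the minus strand. Exons of the 5 genes overlap no exon of another gene.

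Promoters were looked up in a RefSeq table (GRCm38.p6) for the members and for Foxa3 and Irx3, paralogs whose levels changed, and 6 of 7 matched. Irx1 had no entry. Promoters rich in CG pairs are known as typical of genes that Polycomb complexes bind, so CG content is what these sequences are shown for. Each runs 5′ to 3′ on the gene's strand from 250 bases before the RefSeq start, with CG pairs in capitals. The intervals are chr13:72628570-72628869 for Irx2, chrX:110814129-110814428 for Pou3f4, chr12:57546062-57546361 for Foxa1 and chr2:148046920-148047219 for Foxa2, where the table has 3 starts and 1 is shown.
Irx2: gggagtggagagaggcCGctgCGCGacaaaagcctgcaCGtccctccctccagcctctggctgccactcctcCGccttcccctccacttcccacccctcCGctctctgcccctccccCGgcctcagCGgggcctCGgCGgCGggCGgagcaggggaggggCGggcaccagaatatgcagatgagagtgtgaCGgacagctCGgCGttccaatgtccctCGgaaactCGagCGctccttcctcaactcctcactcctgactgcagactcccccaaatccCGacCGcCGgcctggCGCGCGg
Pou3f4: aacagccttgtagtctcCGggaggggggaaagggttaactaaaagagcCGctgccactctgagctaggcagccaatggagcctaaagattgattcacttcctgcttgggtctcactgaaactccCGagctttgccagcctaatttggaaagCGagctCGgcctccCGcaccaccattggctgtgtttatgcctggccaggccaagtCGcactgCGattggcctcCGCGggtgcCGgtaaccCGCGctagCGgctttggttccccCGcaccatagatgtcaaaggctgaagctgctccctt
Foxa1: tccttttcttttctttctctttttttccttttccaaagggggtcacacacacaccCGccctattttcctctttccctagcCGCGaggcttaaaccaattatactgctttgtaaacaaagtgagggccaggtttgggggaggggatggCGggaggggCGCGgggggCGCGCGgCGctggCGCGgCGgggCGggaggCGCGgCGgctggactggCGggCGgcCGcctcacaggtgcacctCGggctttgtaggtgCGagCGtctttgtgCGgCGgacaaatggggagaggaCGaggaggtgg
Foxa2: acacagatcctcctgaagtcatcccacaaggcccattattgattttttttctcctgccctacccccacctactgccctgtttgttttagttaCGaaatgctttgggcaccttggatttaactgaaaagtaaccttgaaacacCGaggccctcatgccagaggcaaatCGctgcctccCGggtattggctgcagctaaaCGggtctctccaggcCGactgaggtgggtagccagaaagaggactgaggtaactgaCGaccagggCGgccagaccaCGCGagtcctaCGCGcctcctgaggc

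The RefSeq promoter of Foxa1, the member with almost no counts, held 26 CG pairs, more than 83.1% of the 32851 promoters in the table. This interval lies wholly inside the gene as GENCODE annotates it, downstream of the GENCODE start, and so does that of Irx3. For these genes the CG count and motif search thus describe sequence around the RefSeq start alone. Irx2 had 25 CG pairs, Pou3f4 had 15 and Foxa2 had 12, against a median of 7 in the table. Irx3 had 14 and Foxa3 had 22. Among the intervals shown, high CG content was found both for a member at or near 0 and for a well expressed one. The forkhead motif TGTTTAC, searched on both strands, occurs in 3.65% of the promoters. Among these 6 it was found in that of Foxa1, on the opposite strand with its first base 141 bases before the RefSeq start. The octamer motif ATGCAAAT, to which many POU proteins bind, occurs in 1.74% of the promoters and was found in none of the 6. A match describes letters and shows no binding.

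Library depth was 60274140 to 74651782 deposited counts, in which many fragments add about 4 counts. Of all tested genes, 24.1% passed an adjusted p of 0.05 in edgeR's quasi-likelihood test, with 16.2% higher and 7.96% lower with EPZ011989. The defining alpha cell transcript Gcg, which encodes proglucagon, averaged 18633 ± 2338 CPM with EPZ011989 and 19280 ± 804 CPM with DMSO (SD, n = 4 and 5). Of 7 alpha cell markers, all tested, 2 were called higher with EPZ011989 and 5, with Gcg and Irx2 among them, were not called. CPM is the usual count scaled to library size, here with TMM factors. Of 6 beta cell markers, Ins1 and Pdx1 were at 0 in all libraries, and Ins2, Mafa and Iapp were called higher with EPZ011989. The summed beta cell markers were 6.14 to 8.95 CPM with EPZ011989 and 0.457 to 1.65 CPM with DMSO. Fibroblast markers summed to 1.69 to 2.41 CPM with EPZ011989 and 0 to 0.338 CPM with DMSO (Col1a1 and Pdgfrb called higher), and delta cell markers to 0.422 to 1.16 CPM with EPZ011989 and 0 to 0.135 CPM with DMSO (Sst called higher). Endothelial markers summed to 0.393 to 1.35 CPM with EPZ011989 and 0.0969 to 0.309 CPM with DMSO (Kdr called higher). Sst, Iapp, Col1a1, Pdgfrb and Kdr would not have reached the expression filter without the EPZ011989 libraries, so their calls were favoured by the filter and are no support. Acinar markers summed to 5.78 to 7.87 CPM with EPZ011989 and 8.999 to 13.4 CPM with DMSO (Cela1 called lower, adjusted p = 0.00212). Ductal, leukocyte and epsilon cell markers gave no call. The part of these low levels in the results that follow was not tested. EPZ011989 replicate 2 weighed most on the count of genes called lower, which was 2377 without it and 1174 with it, and calls of members, and of other named genes, that it decides are also given without it.

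None of the 4 tested members passed edgeR's test (0 of 4, against 24.1% of all tested genes). The count was also 0 at an unadjusted p of 0.05, and 0 by DESeq2 and by limma-voom. Without EPZ011989 replicate 2, 1 of 4 (Irx1) was called. Leaving out that library fixed full separation of the groups for Irx1 in advance, so this call adds no support. Without EPZ011989 replicates 2 and 4 the count was 0 of 4. The 2 groups overlapped for all 4 tested members, whereas over all tested genes every EPZ011989 library was above every DMSO library for 16.1% and below for 8.77%. Calls were unevenly spread over expression levels. At 100 to 1000 CPM, where Irx1, Irx2 and Foxa2 lie, 4.58% of tested genes were called higher and 15.1% lower. At 10 to 100 CPM, the range of Pou3f4, the shares were 11.7% and 10.2%.

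**Figure D1:**
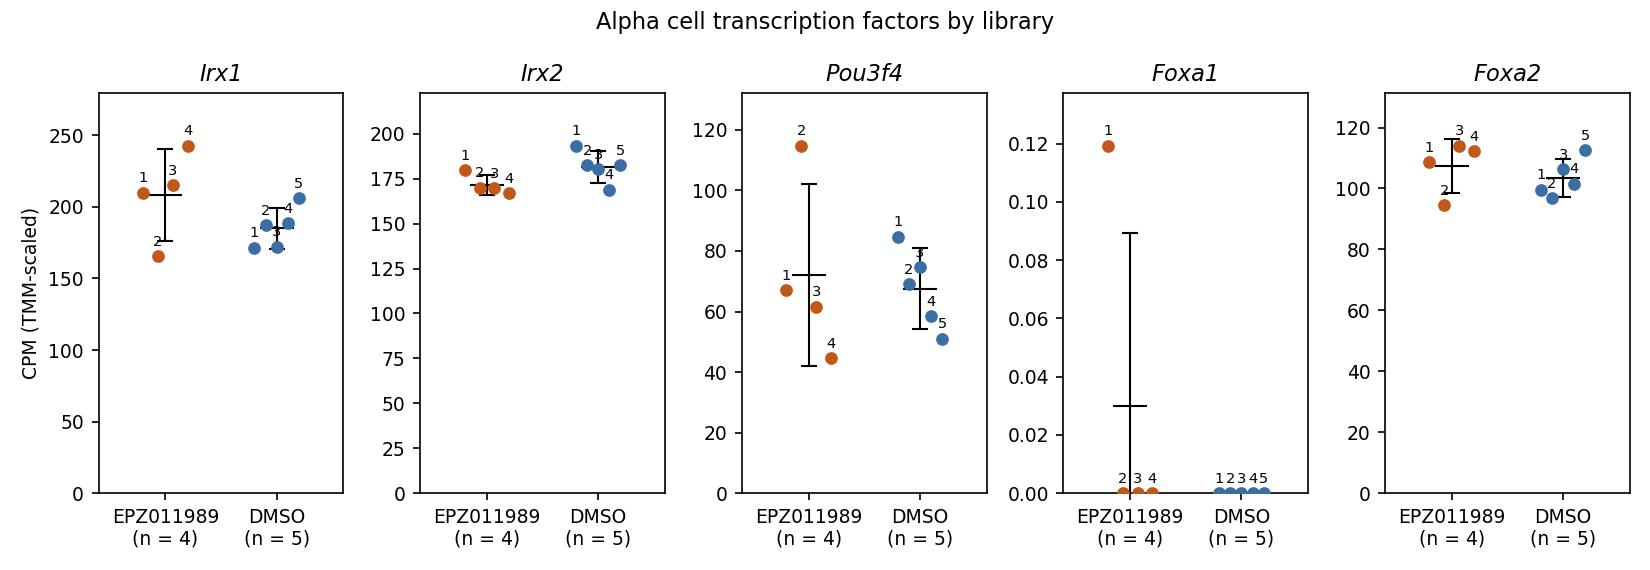
CPM of each member in every library, with the replicate number above each point and bars for the mean and SD (EPZ011989, n = 4; DMSO, n = 5; each panel has its own axis from 0). The groups overlap for every member, Foxa1 is at or near 0, and EPZ011989 replicate 2 has the highest Pou3f4 and the lowest Irx1 and Foxa2 of its group.

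Irx1 had 210, 165, 215 and 243 CPM in EPZ011989 replicates 1 to 4, and 171, 187, 172, 189 and 206 CPM in DMSO replicates 1 to 5. EPZ011989 replicates 1, 3 and 4 were above every DMSO library and EPZ011989 replicate 2 below every one, so the groups overlapped. The means were 208 ± 32.0 CPM with EPZ011989 and 185 ± 14.3 CPM with DMSO. The log2 fold change was 0.17 ± 0.10 (SE), a fold of 1.13 with a 95% interval of 0.959 to 1.32, and the adjusted p was 0.285. Without EPZ011989 replicate 2 it was 0.26 with an adjusted p of 0.0152. Leaving out the only EPZ011989 library that was not above every DMSO library fixed full separation in advance, so this call adds no support. With each library's trends with exon length and GC content taken out, the log2 fold change was 0.02 (adjusted p = 0.774). These trends were fitted across both groups, so group differences that run with length or GC content were taken out too.

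Irx2, its neighbour in the cluster, had 180, 170, 170 and 167 CPM with EPZ011989 and 193, 182, 180, 169 and 182 CPM with DMSO. Before any removal of length and GC trends it was the steadiest of the tested members, with all 9 libraries between 167 and 193 CPM. The means were 172 ± 5.64 CPM with EPZ011989 and 181 ± 8.69 CPM with DMSO. The log2 fold change was -0.08 ± 0.06, a fold of 0.946 (95% interval 0.864 to 1.04), with an adjusted p of 0.386. This interval was the narrowest of the 4 members.

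Because both genes lie in 1 cluster, their counts were also set against each other within each library. The Irx1 to Irx2 count ratio was 1.17, 0.973, 1.27 and 1.45 with EPZ011989 and 0.886, 1.03, 0.956, 1.12 and 1.13 with DMSO. The mean ratio was 1.22 ± 0.201 with EPZ011989 and 1.02 ± 0.104 with DMSO, with EPZ011989 replicates 1, 3 and 4 above all DMSO libraries. The difference of 0.24 on the log2 scale gave p = 0.119 in an exact two-sided permutation test over samples, whose smallest possible p is 0.0159. The difference was 0.34 without EPZ011989 replicate 2 (exact permutation p = 0.0357) and 0.26 without EPZ011989 replicates 2 and 4 (exact permutation p = 0.0952). EPZ011989 replicate 2 was the only EPZ011989 library within the DMSO range, so leaving it out fixed full separation of the groups in advance. The p-values without it are thus the smallest that the remaining libraries allow, and add no support.

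Pou3f4, the only POU3 gene among the members, had 67.1, 115, 61.5 and 44.5 CPM with EPZ011989 and 84.7, 69.1, 74.7, 58.6 and 51.0 CPM with DMSO. EPZ011989 replicate 2 was the highest of all 9 libraries and replicate 4 the lowest, so the EPZ011989 libraries spanned more than the whole DMSO range. The means were 72.0 ± 30.1 CPM with EPZ011989 and 67.6 ± 13.3 CPM with DMSO. The log2 fold change was 0.09 ± 0.24, a fold of 1.06 (95% interval 0.737 to 1.54), with an adjusted p of 0.843. Its direction rests on single libraries, with -0.24 without EPZ011989 replicate 2 and -0.02 without DMSO replicate 5. Changes of either sign within the interval of 0.737 to 1.54 cannot be told from no change at this spread.

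Foxa2 had 109, 94.5, 114 and 112 CPM with EPZ011989 and 99.6, 96.9, 106, 102 and 113 CPM with DMSO. The groups overlapped nearly throughout. The means were 107 ± 8.89 CPM with EPZ011989 and 103 ± 6.19 CPM with DMSO, with a log2 fold change of 0.05 ± 0.07, a fold of 1.04 (95% interval 0.926 to 1.16) and an adjusted p of 0.676. Foxa1, its closest paralog among the members, had 0.119 CPM (9 counts) in EPZ011989 replicate 1. It was at 0 in the other EPZ011989 libraries and in all DMSO libraries. A count of 0 allows up to 3 fragments, taken here as 12 counts or 0.158 to 0.203 CPM per library, so all 9 libraries were at or under this limit and no fold is given. Such limits cover counting error only.

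Levels of different genes were compared per kb of annotated exons. Irx1 was the highest member, at 79.5 ± 12.2 CPM per kb with EPZ011989 and 70.7 ± 5.45 with DMSO, above 95.6% of tested genes. Irx2 came next, at 52.3 ± 1.72 CPM per kb with EPZ011989 and 55.3 ± 2.65 with DMSO. Foxa2 had 45.3 ± 3.75 CPM per kb with EPZ011989 and 43.6 ± 2.61 with DMSO. Pou3f4 had 24.6 ± 10.3 CPM per kb with EPZ011989 and 23.1 ± 4.53 with DMSO, still above 83.6% of tested genes. Within each group no library of a gene overlapped the next gene in this order, and the narrowest gap was that between Foxa2 (lowest 39.9) and Pou3f4 (highest 39.2) with EPZ011989. Foxa2 was at least 785-fold above the limit for Foxa1 per kb in every EPZ011989 library, and at least 704-fold in every DMSO library. Foxa2 was thus the FoxA member that these cells transcribed at a measurable level, in both groups.

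**Figure D2:**
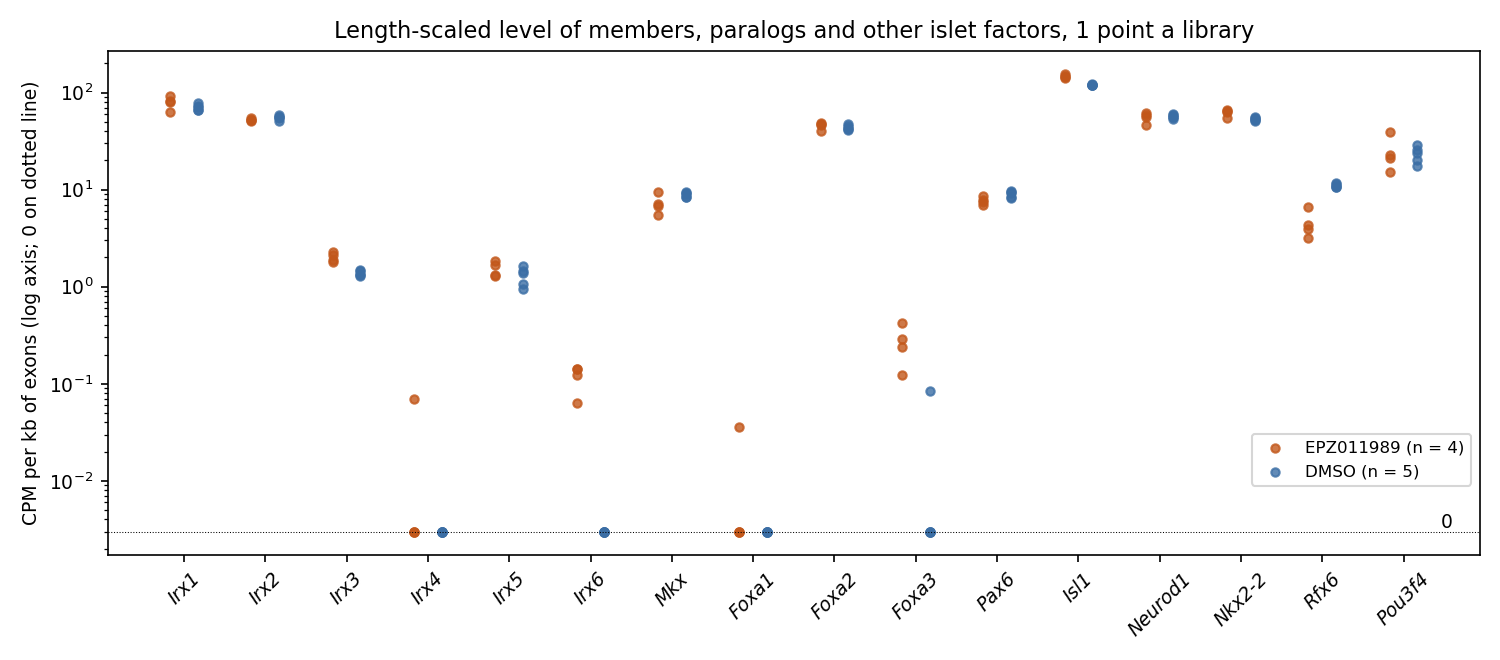
Level of each member, of its paralogs and of other islet factors in CPM per kb of exons on a log axis, 1 point a library (EPZ011989 left of DMSO for each gene, zeros on the dotted line). Irx1, Irx2 and Foxa2 sit among the well expressed islet factors, while Foxa1 and Irx4 have a count in 1 library each.

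The members differed in their spread between libraries. The residual SD of log2 CPM around the group means was 0.430 for Pou3f4, 0.173 for Irx1, 0.104 for Foxa2 and 0.0607 for Irx2. Among 4654 genes between 50 and 500 CPM the median was 0.138. Pou3f4 varied more than 99.0% of these genes and Irx2 more than 8.92%. The spread of Pou3f4 was largest among EPZ011989 libraries, with a coefficient of variation of 41.8% there and 19.6% with DMSO.

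After subtraction of group means, Irx1 and Pou3f4 ran opposite to each other over the 9 libraries. The 6 pairs of members were examined after their values had been seen. Pearson's r of Irx1 with Pou3f4 was -0.98 and Spearman's rho -0.98, each with p = 3.47e-04 in an exact permutation within groups, the smallest such permutations can give, and an adjusted p of 0.00208 over the 6 pairs. Without the libraries farthest from the median of Irx1, EPZ011989 replicates 2 and 4, r was -0.94. Irx1 with Foxa2 gave r = 0.78 and rho = 0.80 (exact permutation p = 0.0479 for r, adjusted 0.0958), and Pou3f4 with Foxa2 gave r = -0.80 and rho = -0.73 (exact permutation p = 0.0309 for r, adjusted 0.0927), neither of which passed. The 3 pairs with Irx2 had r between -0.20 and 0.34.

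This opposition was shared by many genes and moved with a library-wide pattern. Of 9343 genes, 37.8% had an r of at least 0.9 in size with Irx1 and 33.2% with Pou3f4. A correlation at least as strong as that of this pair was found with Irx1 for 2.76% of the genes and with Pou3f4 for 1.02%. The deviations of Irx1 and Pou3f4 had r = -0.98 and 0.98 with the second principal component of all libraries, which held 10.9% of the variance. Among the EPZ011989 libraries the Irx1 to Irx2 count ratio rose in the reverse order of their scores on that component. Loadings on that component ran with exon length (rho 0.41) and against GC content (rho -0.42) over 14577 genes, which are not independent replicates. The longest annotated transcript of Irx1 has 61.7% GC and that of Pou3f4 51.8%. With length and GC trends taken out of each library, r between the pair was -0.65 and rho -0.82. The residual SD was then 0.038 for Irx1, 0.134 for Irx2, 0.520 for Pou3f4 and 0.0964 for Foxa2. The part of RNA or library quality in this pattern was not tested.

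**Figure D3:**
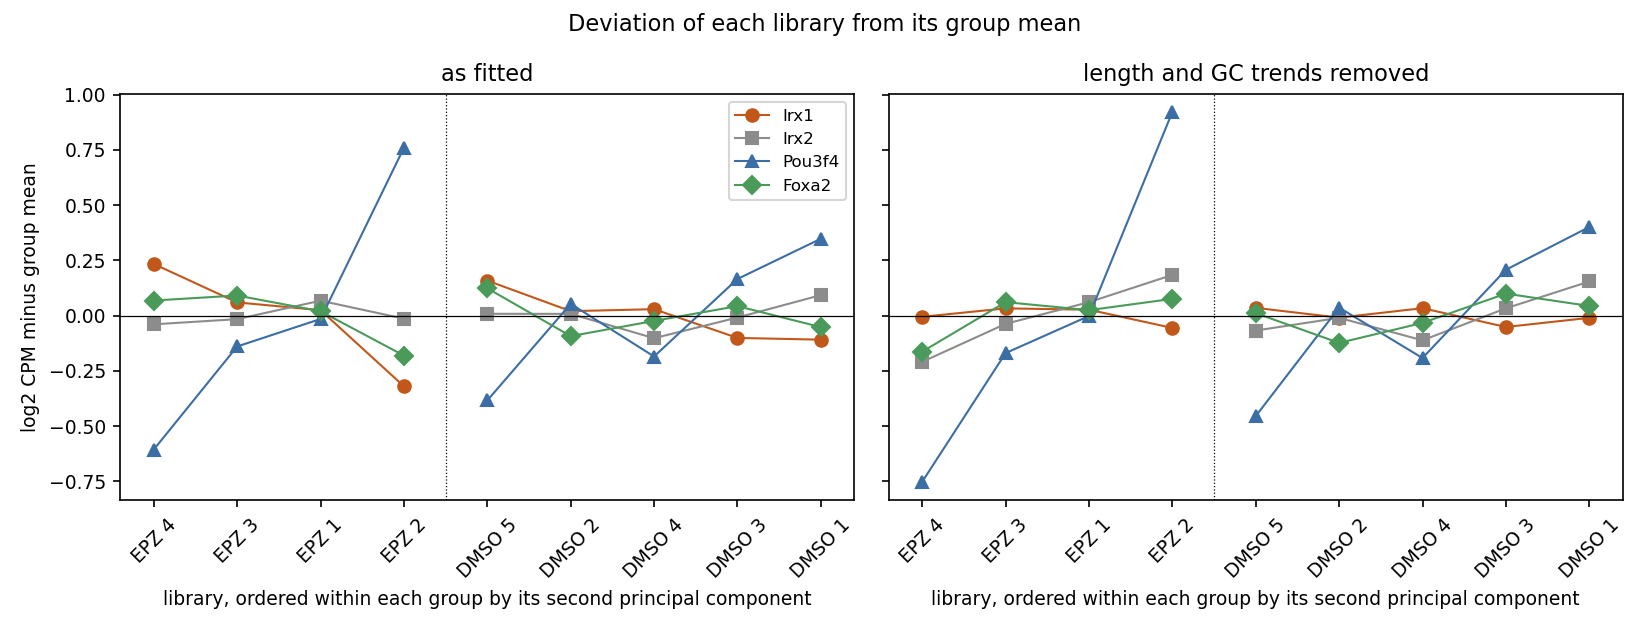
Deviation of log2 CPM from the group mean for 4 members, with libraries ordered within each group by their score on the second principal component (EPZ011989 left, DMSO right), as fitted and with length and GC trends removed. Irx1 and Pou3f4 mirror each other as fitted, and after the removal Irx1 is nearly flat while Pou3f4 still varies.

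Genes whose log2 CPM deviations from the group means ran most like those of each member over the 9 libraries were ranked among 9344 genes of at least 10 CPM, as a description. The measure ignores differences between the groups. For Irx1 these were Sdhc (r = 0.996), a subunit of succinate dehydrogenase, Cxxc1 (0.995), a reader of unmethylated CG pairs, and Emc10 (0.995). For Pou3f4 they were Wdr26 (0.996), Lemd3 (0.995) and Elovl6 (0.994), a fatty acid elongase. For Foxa2 they were Pim3 (0.990), Commd5 (0.962) and Zfp212 (0.955). For Irx2 they were Sptbn4 (0.944), a spectrin, Msantd2 (0.933) and Repin1 (0.855). Irx2, the steadiest tested member only before length and GC trends were taken out, had the loosest matches. These values share libraries and the pattern described above.

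Several paralogs of the members passed the test, some of them tested only because of their EPZ011989 libraries. Of 7 genes of the Iroquois family list (Mkx, a related homeobox gene, included) 6 were tested. Without Irx6, which reached the filter only through the EPZ011989 libraries, 1 of 5 rose, Irx3. The median log2 fold change of the 5, Irx1 and Irx2 included, was 0.17, against 0.0059 over the 13425 genes that reached the filter without the EPZ011989 libraries, of which 14.1% were higher and 8.74% lower. Irx3 (chr8:91798525-91802067) had 5.81, 4.95, 5.14 and 6.26 CPM with EPZ011989 and 3.78, 3.62, 3.54, 4.14 and 4.04 CPM with DMSO, and the groups did not overlap. Its log2 fold change was 0.53 ± 0.12 with an adjusted p of 0.00667. Its exons overlap those of Irx3os on the opposite strand, and whether counting used strand is not given in the sources used here. At 1 to 10 CPM, 33.4% of all tested genes were called higher and 3.41% lower.

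Irx6 had 31, 15, 36 and 34 counts with EPZ011989 and 0 in every DMSO library. It averaged 0.393 ± 0.125 CPM with EPZ011989, at least 2.24-fold above the limit of 12 counts per DMSO library, with an adjusted p of 0.00125. A gene at 0 with DMSO had to be higher with EPZ011989 to be tested, so the call adds no support, and its exons overlap those of the gene model Gm45505. Irx5 averaged 4.80 ± 0.853 CPM with EPZ011989 and 4.05 ± 0.857 CPM with DMSO (adjusted p = 0.393), and Irx4 had 13 counts in EPZ011989 replicate 4 and 0 elsewhere. Mkx averaged 29.4 ± 6.65 CPM with EPZ011989 and 36.3 ± 1.95 CPM with DMSO (log2 fold change -0.31, adjusted p = 0.121). Without EPZ011989 replicate 2 it was -0.47 with an adjusted p of 0.00268. That library was the only EPZ011989 one within the DMSO range of Mkx, so its removal fixed full separation and the call adds no support.

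Of 15 genes of the POU family 5 were tested and 4 were at 0 in all libraries. Pou6f1 and Pou2f2 were called higher. Without Pou2f2, which needed the EPZ011989 libraries to reach the filter, the median log2 fold change was 0.11 and 1 of 4 rose. Over all genes that reached the filter without those libraries, 14.1% were higher. Pou6f1 averaged 45.7 ± 3.67 CPM with EPZ011989 and 31.8 ± 1.72 CPM with DMSO, a log2 fold change of 0.52 ± 0.08 with an adjusted p of 5.63e-04 and no overlap. Pou2f2, known for its role in B cells, averaged 1.01 ± 0.600 CPM with EPZ011989 and 0.207 ± 0.101 CPM with DMSO (log2 fold change 2.27 ± 0.52, adjusted p = 0.00803). Without EPZ011989 replicates 2 and 4 its adjusted p was 0.0883. Pou2f1, which encodes the widely expressed factor Oct-1, averaged 47.7 ± 21.4 CPM with EPZ011989 and 43.6 ± 6.43 CPM with DMSO (adjusted p = 0.756). Pou4f3 had 5, 18, 32 and 14 counts with EPZ011989 and 0 in every DMSO library, and was not tested.

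The third FoxA gene, Foxa3, had 65, 35, 19 and 42 counts with EPZ011989 and 0, 0, 0, 0 and 12 counts with DMSO. The means were 0.549 ± 0.253 CPM with EPZ011989 and 0.0343 ± 0.0767 CPM with DMSO, with an adjusted p of 0.0225. Foxa3 reached the filter only through the EPZ011989 libraries, so this call too is no support. The ratio was 15.7 with a counting interval of 4.96 to 78.8, from 40 fragments with EPZ011989 and 3 with DMSO. The adjusted p was 0.0738 without EPZ011989 replicate 1 and 0.0624 without EPZ011989 replicates 2 and 4. At under 1 CPM, 20.8% of all tested genes were called higher and 0.554% lower.

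**Figure D4:**
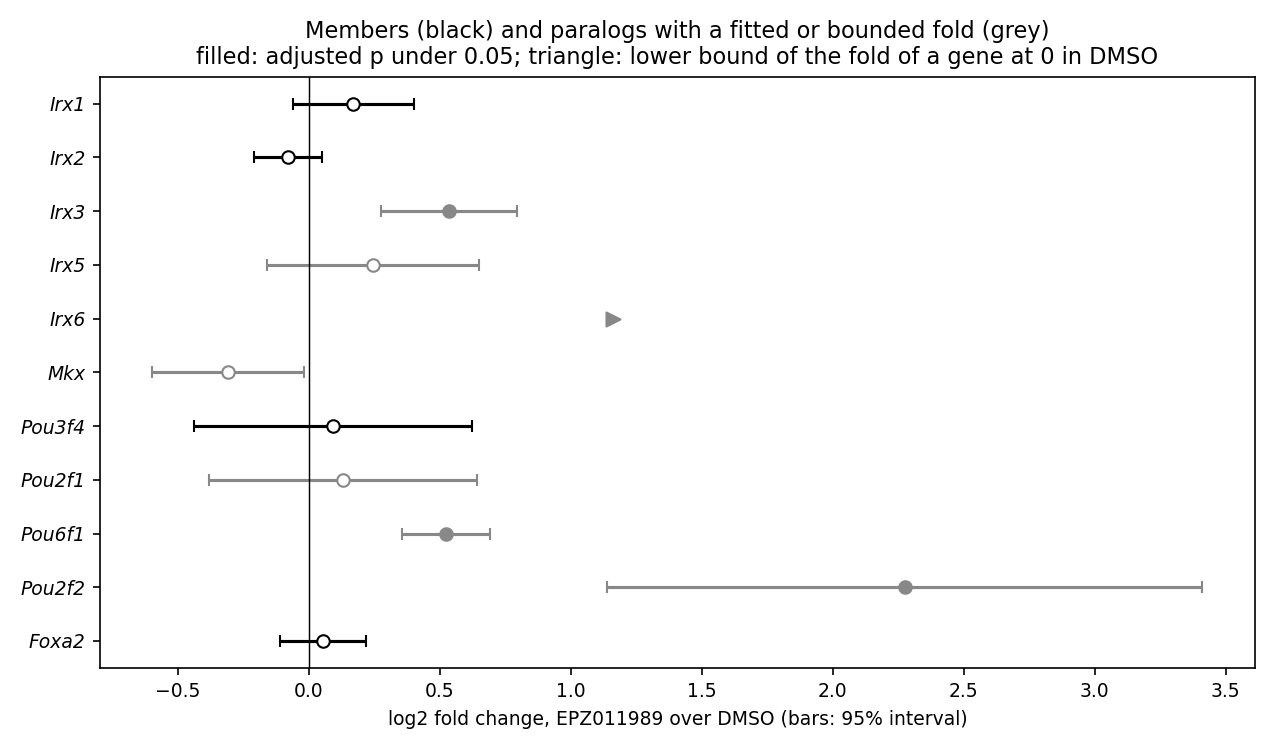
Log2 fold change of EPZ011989 over DMSO with its 95% interval for 4 members (black) and for paralogs (grey), filled where the adjusted p was under 0.05. The intervals of all 4 members cross 0, while those of Irx3, Pou6f1 and Pou2f2 lie above 0 and the lower bound for Irx6, drawn as a triangle, stands at 2.24-fold.

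A list of 7 genes was used that are known from earlier work as lowered by loss of Foxa1 and Foxa2 in alpha cells, and all were tested. Of the 7, which include the member Pou3f4, 2 rose, 1 fell and 4 did not pass, with a median log2 fold change of 0.09. These are 28.6% higher and 14.3% lower. Of the 13425 genes that, like these 7, reached the filter without the EPZ011989 libraries, 14.1% were higher and 8.74% lower. The difference was not tested. Nkx2-2, a homeobox factor of endocrine cells, averaged 179 ± 14.9 CPM with EPZ011989 and 154 ± 5.09 CPM with DMSO (adjusted p = 0.0369), and 8 of the 9 fits without 1 library did not call it. Kcnj11, the pore of the ATP-sensitive potassium channel, averaged 45.7 ± 2.13 CPM with EPZ011989 and 55.9 ± 3.36 CPM with DMSO (log2 fold change -0.29 ± 0.07, adjusted p = 0.0102). Abcc8, the regulatory subunit of that channel, averaged 287 ± 22.0 CPM with EPZ011989 and 270 ± 2.98 CPM with DMSO (adjusted p = 0.379). Pcsk2, the enzyme that cuts proglucagon to glucagon, had an adjusted p of 0.905, and Gcg 0.778.

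Of the liver genes first known as FOXA targets, 10 were listed, of which 9 were in the table and 6 tested. Without Afp, the alpha-fetoprotein gene, none of 5 was called by edgeR and the median log2 fold change was 0.10. Over all genes that reached the filter without the EPZ011989 libraries, 14.1% were higher and 8.74% lower. Afp had 66, 69, 162 and 165 counts with EPZ011989 and 0, 5, 9, 11 and 0 counts with DMSO, under the limit of 12 counts in every DMSO library, and reached the filter only through the EPZ011989 libraries. Its level was 1.57 ± 0.757 CPM with EPZ011989 and 0.0768 ± 0.0805 CPM with DMSO (adjusted p = 0.00228). Ttr, the transthyretin gene and a strong alpha cell transcript, averaged 1304 ± 298 CPM with EPZ011989 and 1554 ± 147 CPM with DMSO (adjusted p = 0.246), and Alb, the albumin gene, 8.16 ± 0.666 CPM with EPZ011989 and 8.62 ± 2.03 CPM with DMSO (adjusted p = 0.797). With the length trend taken out, Ttr was called lower (adjusted p = 0.0214).

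Among 21 other transcription factors of alpha and islet cells 18 were tested, 5 rose, Nkx2-2 included, and 3 fell, with a median log2 fold change of 0.22. These are 27.8% higher and 16.7% lower. Of the 13425 genes that, like all 18, reached the filter without the EPZ011989 libraries, 14.1% were higher and 8.74% lower. The difference was not tested. Isl1 (adjusted p = 0.00236) and Foxo1 (adjusted p = 0.00382) rose with log2 fold changes of 0.31 and 0.47. Rfx6, a factor of endocrine progenitors and islet cells, fell to 18.0 ± 5.86 CPM with EPZ011989, against 44.2 ± 1.78 CPM with DMSO (log2 fold change -1.29 ± 0.18, adjusted p = 3.33e-04). Pax6 averaged 90.0 ± 8.89 CPM with EPZ011989 and 104 ± 7.56 CPM with DMSO (log2 fold change -0.22, adjusted p = 0.0869). Pax6 was called lower without DMSO replicate 5 (adjusted p = 0.0439), by DESeq2 (adjusted p = 0.0337) and with the length trend taken out (0.0273). It was also called lower with EPZ011989 replicate 2 left out (-0.29 on the log2 scale, adjusted p = 0.0113) and without EPZ011989 replicates 2 and 4 (0.0442). Only EPZ011989 replicate 2 lay within the DMSO range of Pax6, so its removal fixed full separation and the calls without it add no support. Of 11 alpha cell genes that are not transcription factors 9 were tested, and 1 rose (Peg10) and 1 fell (Gria3, adjusted p = 0.0256), with a median log2 fold change of 0.02. The adjusted p of Gria3 was 0.0782 without EPZ011989 replicate 3 and 0.0543 with library size alone as the scaling.

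Most annotated neighbours of the members have no row in the count table used here, so their expression was not measured. Within 500 kb, no other gene was tested around Irx1 or Pou3f4, and 1 was tested around Irx2, 2 around Foxa1 and 1 around Foxa2. EdgeR called 0 of them, against 24.1% of all tested genes. The smallest adjusted p of the 4 was 0.397, at a lincRNA model 6.77 kb from Foxa2. At Irx2 the tested neighbour was the lincRNA model Gm20554, 0.256 kb away on the opposite strand, with 3.01 ± 0.567 CPM with EPZ011989 and 2.93 ± 0.715 CPM with DMSO (adjusted p = 0.932). At Foxa1 the nearest was Mipol1, 316 kb away (adjusted p = 0.477).

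**Figure D5:**
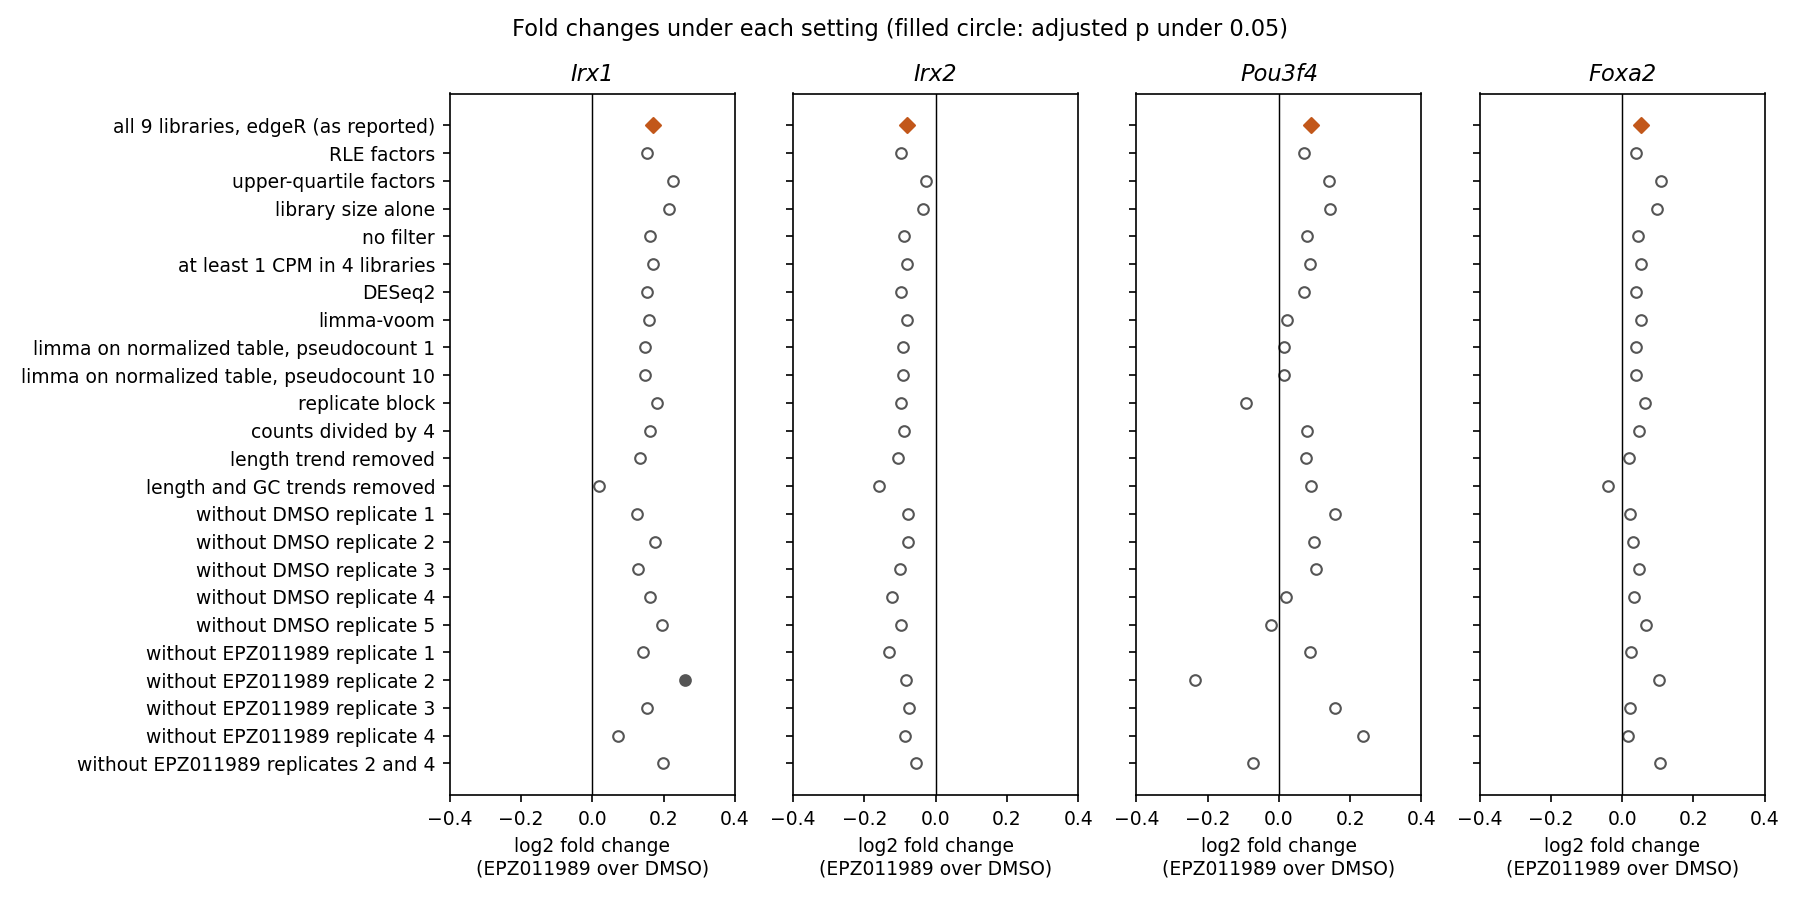
Log2 fold change of EPZ011989 over DMSO for 4 members under each setting, from other scalings, filters and tools to each library left out (the diamond is the value reported, a filled circle an adjusted p under 0.05). The 1 filled circle is Irx1 without EPZ011989 replicate 2, whose removal fixed full separation of the groups in advance. Pou3f4 lies on either side of 0.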

How the data were processed

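Poly-A RNA-seq libraries of αTC1 cells (EPZ011989, n = 4; DMSO, n = 5) were grouped by the treatment in the labels. HISAT2, StringTie and DESeq2 are tools, and mm10 the build, that stand in the submitters' processing notes with no role given. The authors deposited whole-number gene counts, and a normalized table on a linear signal scale in which each library's counts are divided by 1 factor. Counts of 4 were more frequent than 2 or 3, so counts are not independent reads. Where nothing says that cultures were separate, p-values measure only the spread between these libraries.

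Counts were filtered with filterByExpr, scaled by TMM and tested in edgeR 4.0.16 (robust quasi-likelihood fit, treatment as the only term, R 4.3.3), with Benjamini-Hochberg adjustment over 14754 genes. The fit was tested on simulated data. Alternatives used DESeq2 1.42.0, limma 3.58.1, other scalings and filters, removed trends, and left-out libraries. Correlations used exact permutation within groups. Exon lengths, and the GC content of each gene's longest transcript, came from GENCODE M21. Named genes were the 5 members, their tested or counted paralogs, up to 6 genes of each related list by a fixed rule, and the 3 genes most like each member. Values of a few of these genes are not reported here. Members and lists were chosen with earlier results of these data known. A count of 0 has a limit of 3 fragments, about 4 counts each.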

Additional observations from a re-analysis of the deposited data

Results flagged for a closer look

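In 5 cases 1 library lay far from the rest of its group, by Dixon's gap test on CPM over 36 genes and 68 groups of libraries. Chance flags about 1 in 20 groups, but 3 of the 5 cases (Foxa1, Irx4 and Foxa3) have every other library of the group at 0, where any count at all is flagged. Among the members this was Foxa1 in EPZ011989 replicate 1, at 0.119 CPM where the other 3 EPZ011989 libraries were at 0. Among paralogs, Irx4 was highest in EPZ011989 replicate 4 at 0.182 CPM, and Foxa3 highest in DMSO replicate 5 at 0.171 CPM. Both values come from 13 or fewer counts. Pou2f1 was highest in EPZ011989 replicate 2 at 79.4 CPM, the library that was also highest for Pou3f4. The liver gene Pck1 was highest in EPZ011989 replicate 1 at 0.596 CPM.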

How the results depend on the processing

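Irx2 kept its direction in every alternative run, with log2 fold changes of -0.16 to -0.03, and passed the test in none. Irx1 stayed above 0 (0.073 to 0.26 with single libraries left out, 0.02 to 0.23 otherwise). It was called without EPZ011989 replicate 2, whose removal fixed full separation in advance, so that call adds no support. The log2 difference of the Irx1 to Irx2 ratio was 0.15 to 0.34 with single libraries left out. Pou3f4 turned to -0.073 without EPZ011989 replicates 2 and 4, and spanned -0.24 to 0.24 with single libraries left out. Foxa2 turned to -0.040 with length and GC trends removed. The cause was not tested. Foxa1 and its ratio to Foxa2 gave no value under the filter, so no alternative was run for them. The trend removal with GC content was chosen after seeing the data. Removing trends also takes out group differences that run with length or GC content.

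Over all genes, 2388 were higher and 1174 lower. Upper-quartile scaling gave 776 lower (2735 higher, 77.9% of calls higher against 67.0%), length removal gave 1851 lower and length with GC removal 2171 lower. Library size alone gave 75.6% higher, removal of length 57.6% and of length with GC 55.3%. Left-out libraries gave 1861 to 2939 higher and 781 to 2377 lower. Same-numbered libraries of the 2 groups had correlations of -0.10 to 0.03, and 1 of 8 correlated best with its own number. These correlations gave no sign of pairing by number but cannot exclude it, and the labels state no pairing. With the replicate block, 1525 genes were higher and 527 lower, and log2 fold changes were -0.092 for Pou3f4, -0.044 for Pou2f1 and -0.00074 for Pcsk2. The block gave an adjusted p of 0.240 for Nkx2-2, 0.0737 for Kcnj11, 0.0727 for Isl1, 0.0632 for Pou2f2 and 0.0568 for Gria3.

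Genes that passed no test also changed sign. Pou2f1 was -0.15 without EPZ011989 replicates 2 and 4 and Gcg 0.0054 with upper-quartile scaling. Neurod1 was 0.022 with upper-quartile scaling, 0.018 with library size alone and 0.010 without EPZ011989 replicates 2 and 4. With single libraries left out, log2 fold changes spanned -0.24 to 0.24 for Pou2f1, -0.13 to 0.025 for Gcg, -0.032 to 0.078 for Pcsk2, -0.21 to 0.023 for Alb, -0.61 to 0.31 for Pck1, -0.096 to 0.032 for Neurod1 and -0.036 to 0.27 for Slc7a2. The members, the Irx1 to Irx2 ratio and the counts of all genes had 150 alternatives. Of these, 136 kept direction and side of the threshold, or moved a count by less than 1.5 times.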
